A study of Mus musculus with 12 samples.

Results

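The liver transcriptomes of C57BL/6J mice fed a high-fat, L-amino acid-defined diet without choline (CDAHFD) were compared with those of C57BL/6J mice fed a normal diet (ND). The comparison was made between the 3 CDAHFD libraries and the 3 ND libraries of this strain. These are 6 of the 12 libraries of the study, and the outbred ICR stock was left out. C57BL/6J is the inbred strain from which the mouse reference genome was built. All 6 mice were male, carried the genotype label WT and were 8 weeks old when purchased. The CDAHFD group received a diet with 60% of its energy as fat, 0.1% methionine, no added choline and free amino acids in place of protein for 10 weeks. The ND group received chow for the same 10 weeks. The diets thus differed in fat, choline, methionine and protein source at once, and the parts of these nutrients in any change cannot be told apart.

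Choline is needed to make phosphatidylcholine, the main phospholipid of the very-low-density lipoprotein (VLDL) particles in which hepatocytes export triglyceride. The liver can also make phosphatidylcholine by methylating phosphatidylethanolamine with S-adenosylmethionine, which is formed from methionine. A diet short of both nutrients and rich in fat is known to load the liver with fat and to lead on to inflammation and scarring, the features of metabolic dysfunction-associated steatohepatitis (MASH).

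Gene counts summed to 24612309 to 32214782 in the CDAHFD libraries and to 22245245 to 22752858 in the ND libraries. Levels are given as CPM, which are read counts brought to a common library size. Library sizes were first scaled by TMM, a method that holds most genes level between libraries. Genes were compared with the quasi-likelihood test of edgeR, and log2 fold changes (log2 FC) are given ± SE. The words rose and fell stand for genes with an adjusted p under 0.05 (Benjamini-Hochberg, all 13402 tested genes). By this rule 26% of the tested genes rose and 21.2% fell in CDAHFD livers (47.2% in all). The share of a list that rose or fell is to be read against these. The lists and their members were chosen with earlier results of these data known, so a share above these is a description and not a test. Members with too few counts in both groups were not tested and are not part of the shares. With the thresholds of the study (p under 0.05 without adjustment, at least a 2-fold change), 20.8% were upregulated and 7.89% downregulated. Of the tested genes, 30.8% had all CDAHFD libraries above all ND libraries and 27.6% had all of them below. For every gene named here as risen or fallen the groups did not overlap, except for Acsl4, Cyp7a1, E2f8, Ehd3, Saa1, Saa2 and Prtn3. Where 5 or fewer members of a list rose or fell they are named in brackets, a choice made after their values were seen, apart from genes not reported here. Genes that rose did so by a median of 3.41-fold, and genes that fell did so by a median of 1.75-fold. Over all genes the log2 fold change had a median of 0.0036 under TMM and 0.66 when only library size was used for scaling. The split of calls was then 7568 up and 717 down (56.5% and 5.35% of the tested genes) in place of 3486 up and 2839 down. Modest falls therefore depended on the scaling. Lists whose median changed sign with it, and many whose counts of calls moved by about 1.5 times or more, are given under both scalings. Some lists are given under TMM alone although a small count moved. With library size scaling fallen chemokines went from 4 to 0, and fallen collagens and fallen female-biased genes from 4 to 2. Fallen quiescent stellate cell genes went from 2 to 0, and risen periportal genes from 1 to 4. With library size scaling the falls of Acaca, Col18a1, Cxcl12, Cyp7a1, F2, Hamp, Hnf4a, Mat1a, Pemt, Prtn3, Sdf2l1 and Srebf1, and those of some genes named in brackets, no longer passed the test. Chka, Cd5l, Gclc, Il1b, Mat2a, Slc40a1, Sox9 and Srebf2 were among the named genes that did not pass with TMM and rose with this scaling. The libraries fell apart by diet on the first principal component, which held 80.7% of the variance. Within the groups 2 libraries stood apart from their partners. In CDAHFD replicate 1, biliary genes were higher and resident macrophage and periportal hepatocyte genes lower than in the other CDAHFD libraries, and in ND replicate 2 acute phase genes were far above the other ND libraries. The labelled tissue and sex were checked in every library, with albumin (Alb) at 35660.3, 64971 and 47741 CPM in CDAHFD livers, against 95984, 82108 and 80252 CPM in ND livers (adjusted p = 0.173). The Y-linked Ddx3y and Eif2s3y were counted at least 2206 times. Some genes that liver cells are known to use had almost no counts in any of the 6 libraries, so that their values say nothing of expression. A set of 10 such genes, picked after their values were seen (Pnpla2, Pklr, Elovl6, Csf1r, Stab2, Per2, Slc44a2, Col4a1, Glb1 and Tagln), had at most 34 counts in any library, and the cause was not tested.

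Genes of the methionine and betaine cycle, which makes methyl groups and regenerates methionine from homocysteine, were lower in CDAHFD livers as a group. In this list 3 rose (among them Mtr, Gatm), 18 fell and 2 did not pass, of 23 tested, with a median log2 fold change of -1.12, and with library size scaling 5 rose and 12 fell. Bhmt, the enzyme that uses the choline product betaine to turn homocysteine back into methionine, was at 1687, 1949 and 1669 CPM in CDAHFD livers, against 7958, 7288 and 6471 CPM in ND livers. The groups did not overlap, and the fall was about 4-fold (log2 FC -2.03 ± 0.26, adjusted p = 0.000258). Gnmt, which consumes S-adenosylmethionine when it is in surplus, was at 93.4, 256 and 198 CPM in CDAHFD livers, against 649, 763 and 857 CPM in ND livers (log2 FC -2.05 ± 0.33, adjusted p = 0.00106). Its lowest value lay in CDAHFD replicate 1, as did those of most enzymes of this list. The 2 steps that carry homocysteine on to cysteine fell together. Cbs, the first of them, was at 95.99, 234 and 152 CPM in CDAHFD livers, against 413, 534 and 384 CPM in ND livers (log2 FC -1.47 ± 0.30, adjusted p = 0.00346). Cth, the second, was at 126, 243 and 151 CPM in CDAHFD livers, against 937, 666 and 725 CPM in ND livers (log2 FC -2.16 ± 0.27, adjusted p = 0.000259). The liver-type enzyme that forms S-adenosylmethionine, Mat1a, fell less (1806 ± 773 CPM in CDAHFD livers, against 3459.7 ± 502 CPM in ND livers, adjusted p = 0.0483). The counterpart of Mat1a in dividing and non-liver cells, Mat2a, did not pass the test (171 ± 28.5 CPM in CDAHFD livers, against 138 ± 18.7 CPM in ND livers, adjusted p = 0.164). Sardh and Shmt1, which move one-carbon units from sarcosine and serine to folate, and Csad, which leads from cysteine to taurine, also fell, with log2 fold changes of -1.63, -1.37 and -1.57. In bulk tissue fewer cells of a type and less RNA per cell cannot be told apart, and this holds for every list of hepatocyte, immune or mesenchymal genes given here.

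Genes of choline use and phosphatidylcholine synthesis did not move as a block. Here 6 rose, 9 fell and 13 did not pass, of 28 tested, and the median log2 fold change was -0.27 under TMM but 0.37 with library size scaling, where 13 rose and 4 fell. The methylation route fell, with Pemt at 115, 125 and 114 CPM in CDAHFD livers, against 198, 208 and 208 CPM in ND livers (log2 FC -0.798 ± 0.12, adjusted p = 0.000775). In the cytidine diphosphate routes Pcyt2, which activates ethanolamine, was at 274, 285 and 244 CPM in CDAHFD livers, against 764, 631 and 808 CPM in ND livers (log2 FC -1.46 ± 0.18, adjusted p = 0.000205). Chpt1, which joins activated choline to diacylglycerol, also fell, at 119, 144 and 127 CPM in CDAHFD livers, against 439.8, 236 and 431 CPM in ND livers (log2 FC -1.503 ± 0.24, adjusted p = 0.00094). By contrast the choline kinase Chka (31.2 ± 6.903 CPM in CDAHFD livers, against 21.7 ± 4.81 CPM in ND livers, adjusted p = 0.0646), the rate-limiting Pcyt1a (74.6 ± 8.05 CPM in CDAHFD livers, against 88.1 ± 3.79 CPM in ND livers, adjusted p = 0.144) and the choline oxidase Chdh (191 ± 23.9 CPM in CDAHFD livers, against 214 ± 12.5 CPM in ND livers, adjusted p = 0.391) did not pass the test. Lpcat2, which re-acylates lysophosphatidylcholine and is used by inflammatory cells, rose to 18.2, 17.1 and 22.3 CPM in CDAHFD livers, against 4.14, 4.37 and 4.83 CPM in ND livers (log2 FC 2.11 ± 0.18, adjusted p = 3.08e-05).

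**Figure D1:**
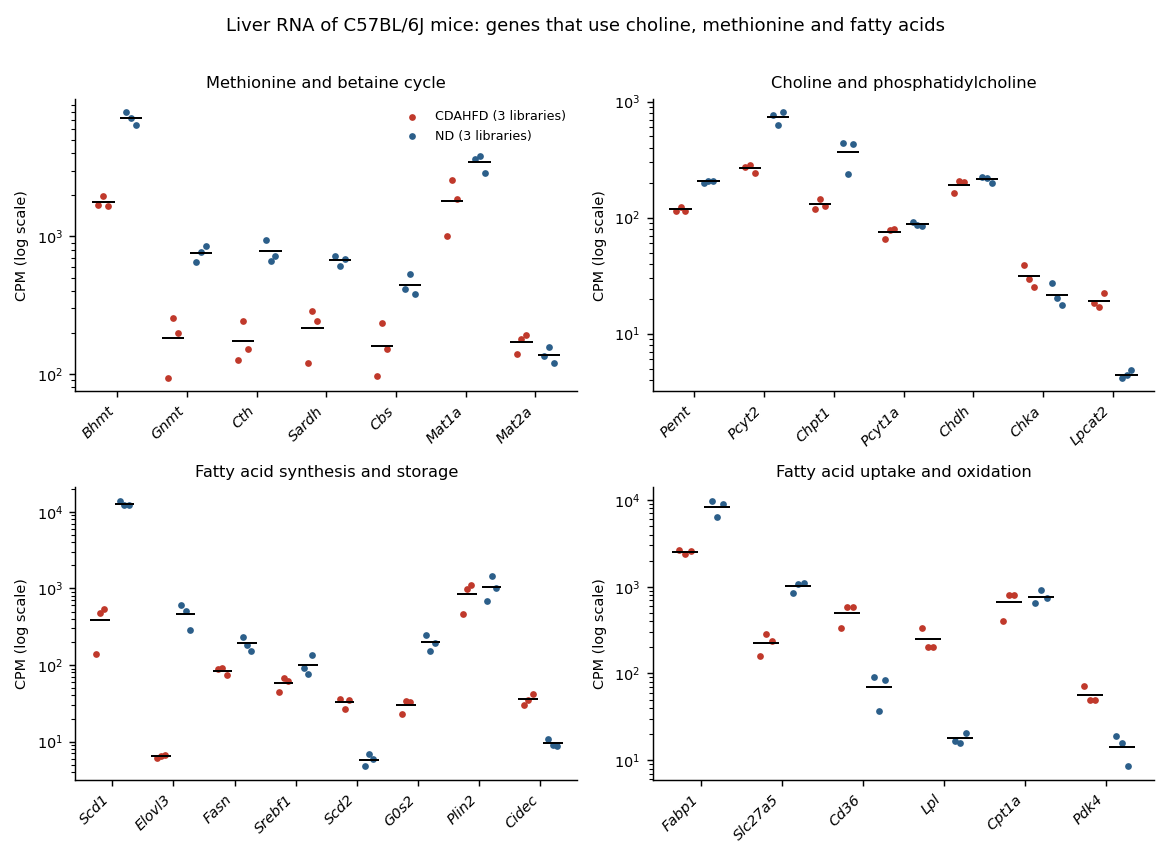
CPM (log scale) of 28 genes in 4 panels, with 3 CDAHFD libraries (red, left) and 3 ND libraries (blue, right) per gene and the group mean as a black bar. Bhmt, Gnmt, Scd1 and Elovl3 lay lower in all CDAHFD libraries than in any ND library, Cd36, Lpl, Scd2 and Pdk4 lay higher, and the groups overlapped for Chka, Plin2 and Cpt1a.

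Fatty acid and triglyceride synthesis genes fell in most cases under TMM. The stearoyl-CoA desaturase Scd1, which makes oleate, was at 139, 474 and 543 CPM in CDAHFD livers, against 14015, 12252 and 12131 CPM in ND livers (log2 FC -5.05 ± 0.54, adjusted p = 0.000107). In this list 2 rose (Scd2, Lpin3), 16 fell and 9 did not pass, of 27 tested, with a median log2 fold change of -1.06, and with library size scaling 5 rose and 10 fell. Elovl3, an elongase of very long chains that is also a male-biased gene, fell to 6.09, 6.51 and 6.76 CPM in CDAHFD livers, against 609.5, 505 and 289.8 CPM in ND livers (log2 FC -6.18 ± 0.31, adjusted p = 3.00e-06). Thrsp, a lipogenic factor that follows carbohydrate supply, was at 5.51, 8.22 and 5.69 CPM in CDAHFD livers, against 154, 58.7 and 71.6 CPM in ND livers (log2 FC -3.87 ± 0.37, adjusted p = 6.12e-05). The log2 fold changes of the core lipogenic enzymes were smaller. Fatty acid synthase, Fasn, averaged 84.3 ± 9.58 CPM in CDAHFD livers, against 191 ± 40.4 CPM in ND livers (mean ± SD, n = 3 each, log2 FC -1.18 ± 0.18, adjusted p = 0.000667). Acetyl-CoA carboxylase, Acaca, averaged 48.9 ± 9.37 CPM in CDAHFD livers, against 78.3 ± 7.24 CPM in ND livers (adjusted p = 0.00691). Srebf1, the sterol-regulated factor that drives them, fell 1.71-fold (log2 FC -0.78 ± 0.23, adjusted p = 0.0192). One desaturase went the other way: Scd2, the form of brain and of immature liver, was at 35.9, 26.8 and 34.8 CPM in CDAHFD livers, against 4.73, 6.91 and 5.86 CPM in ND livers (log2 FC 2.48 ± 0.19, adjusted p = 2.03e-05).

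The coat proteins of lipid droplets and the enzymes that break their fat down did not share a direction: 3 rose (Plin3, Cidec, Hilpda), 7 fell and 7 did not pass, of 17 tested, with a median of -0.36, or 0.28 with library size scaling, where 5 rose and 3 fell. Plin2, the main droplet coat of hepatocytes, overlapped between the groups at 458, 981 and 1120.1 CPM in CDAHFD livers, against 686, 1461 and 1011 CPM in ND livers (log2 FC -0.303 ± 0.37, adjusted p = 0.534). Cidec, which fuses droplets into larger ones, rose to 30.3, 35.4 and 42.2 CPM in CDAHFD livers, against 10.8, 8.91 and 8.85 CPM in ND livers (log2 FC 1.92 ± 0.17, adjusted p = 3.80e-05). G0s2, an inhibitor of the triglyceride lipase of droplets, fell to 22.96, 33.8 and 32.9 CPM in CDAHFD livers, against 246, 154 and 195 CPM in ND livers (log2 FC -2.73 ± 0.22, adjusted p = 2.34e-05). The monoglyceride lipase Mgll fell too (145 ± 17.3 CPM in CDAHFD livers, against 454 ± 59.9 CPM in ND livers, adjusted p = 9.48e-05). Hsd17b13, a droplet enzyme of hepatocytes, did not pass the test (524 ± 193 CPM in CDAHFD livers, against 486 ± 47.6 CPM in ND livers, adjusted p = 0.774).

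Genes of fatty acid uptake and binding did not move together either: 4 rose (Cd36, Fabp4, Lpl, Acsl4), 5 fell (Fabp1, Slc27a2, Slc27a5, Lipc, Acsl1) and 8 did not pass, of 17 tested, with a median of -0.15, or 0.50 with library size scaling, where 7 rose and 5 fell. The fatty acid receptor Cd36 was at 335, 579 and 583 CPM in CDAHFD livers, against 91.3, 37.1 and 83.9 CPM in ND livers (log2 FC 2.82 ± 0.36, adjusted p = 0.000277). Lipoprotein lipase, Lpl, which is low in adult hepatocytes and high in fat-storing cells and macrophages, was at 337, 204 and 202 CPM in CDAHFD livers, against 16.7, 15.9 and 20.8 CPM in ND livers (log2 FC 3.796 ± 0.24, adjusted p = 7.09e-06). By contrast the hepatocyte binding protein Fabp1 was at 2629, 2382 and 2595 CPM in CDAHFD livers, against 9830.4, 6322 and 9025 CPM in ND livers (log2 FC -1.73 ± 0.28, adjusted p = 0.0011). Slc27a5, which activates bile acids and takes up fatty acids, fell to 158, 283 and 235 CPM in CDAHFD livers, against 856, 1084 and 1105 CPM in ND livers (log2 FC -2.17 ± 0.25, adjusted p = 0.000151). In the oxidation and ketogenesis list 4 rose (Acot2, Fgf21, Pdk4, Vnn1), 22 fell and 10 did not pass, of 36 tested, with a median of -0.75, but with library size scaling 7 rose and 7 fell, with a median of -0.12. Ppara, the nuclear receptor that drives fatty acid oxidation and ketogenesis, fell 2.16-fold (log2 FC -1.11 ± 0.19, adjusted p = 0.00149). Cpt1a, the gate of mitochondrial entry, overlapped between the groups (673 ± 233 CPM in CDAHFD livers, against 770.1 ± 142 CPM in ND livers, adjusted p = 0.608). Pdk4, which spares pyruvate, rose to 72.4, 48.9 and 49.8 CPM in CDAHFD livers, against 18.8, 15.9 and 8.47 CPM in ND livers (log2 FC 1.99 ± 0.28, adjusted p = 0.000503). The secreted fasting and stress hormone Fgf21 rose to 12.6, 12.7 and 12.1 CPM in CDAHFD livers, against 3.17, 3.54 and 2.77 CPM in ND livers (log2 FC 1.98 ± 0.19, adjusted p = 5.88e-05).

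Cholesterol synthesis genes fell only in part. Among them 0 rose, 13 fell and 10 did not pass, of 23 tested, with a median of -0.72, but without ND replicate 2 only 8 fell, with all 12 libraries in one fit 7 fell, and with library size scaling 2 rose and 3 fell. Tm7sf2, a late reductase of the pathway, was at 24.9, 21.9 and 22.4 CPM in CDAHFD livers, against 89.9, 117 and 91.5 CPM in ND livers (log2 FC -2.11 ± 0.14, adjusted p = 1.07e-05). Srebf2, the factor that switches on the genes of the pathway, did not pass the test (23.2 ± 5.24 CPM in CDAHFD livers, against 18.5 ± 5.704 CPM in ND livers, adjusted p = 0.294). The sterol element was searched as TCAC and CCAC with any 1 base between them, or on the other strand GTGG and GTGA likewise spaced, in the 250 bases before the RefSeq gene starts (build GRCm38.p6). It was in 1 of the 15 members with a sequence (6.67%), in 0 of the 9 that fell and in 1.22% of all 27025 genes of the table. Of the genes of apolipoproteins and lipoprotein assembly, 1 rose (Apoa4), 15 fell and 5 did not pass, of 21 tested, whereas with library size scaling 1 rose and 8 fell. Apob, the structural protein of VLDL, did not pass (2756, 5332 and 4903 CPM in CDAHFD livers, against 5375, 7299 and 5642 CPM in ND livers, adjusted p = 0.237). Mttp, which loads lipid onto it, fell to 166, 237 and 231 CPM in CDAHFD livers, against 404, 486 and 469 CPM in ND livers (log2 FC -1.101 ± 0.18, adjusted p = 0.00122). The one gene that rose was Apoa4, which the liver makes more of when it is fatty, at 258, 423 and 424 CPM in CDAHFD livers, against 94.2, 161 and 96.4 CPM in ND livers (log2 FC 1.65 ± 0.27, adjusted p = 0.00105).

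Bile acid genes fell at most steps of synthesis and transport: 1 rose (Abcc4), 16 fell and 6 did not pass, of 23 tested, with a median of -1.25, and with library size scaling 5 rose and 14 fell. The strongest fall was of Cyp7b1, the oxysterol hydroxylase of the alternative pathway, at 27.99, 45.2 and 40.5 CPM in CDAHFD livers, against 539.6, 1091 and 569 CPM in ND livers (log2 FC -4.27 ± 0.34, adjusted p = 2.21e-05). Cyp8b1, which sets the share of cholic acid, was at 19.9, 131 and 85.1 CPM in CDAHFD livers, against 562, 569 and 616 CPM in ND livers (log2 FC -2.89 ± 0.54, adjusted p = 0.00221). It was lowest in CDAHFD replicate 1. Cyp7a1, the rate-limiting enzyme of the classical pathway, overlapped between the groups and was at 71.4, 98.6 and 83.1 CPM in CDAHFD livers, against 129.9, 256 and 94.4 CPM in ND livers (log2 FC -0.92 ± 0.32, adjusted p = 0.0401). The basolateral importers Slc10a1 and Slco1a1 had log2 fold changes of -2.49 and -3.51 (adjusted p = 8.39e-05 and adjusted p = 8.98e-05). The canalicular export pump Abcb11 stood at -1.29 (adjusted p = 0.000426). The bile acid receptor Nr1h4 and its target Nr0b2 also fell, Nr0b2 to 16.9, 13.3 and 12.3 CPM in CDAHFD livers, against 41.1, 51.9 and 97.96 CPM in ND livers (log2 FC -2.17 ± 0.30, adjusted p = 0.000465).

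Genes that male mouse livers express more than female livers under pulses of growth hormone were the list with the lowest median, -3.64. Of these, 0 rose, 29 fell and 2 did not pass, of 31 tested. Many genes here, such as the Mup, Cyp2a, Cyp2b, Cyp2c, Cyp2d, Cyp4a and Selenbp genes, have close copies among which reads cannot be split with certainty, so the value of one copy is uncertain. Cyp2d9, a male-specific steroid hydroxylase, was at 1.41, 2.39 and 2.06 CPM in CDAHFD livers, against 12.7, 14.9 and 14.9 CPM in ND livers (log2 FC -2.86 ± 0.24, adjusted p = 2.84e-05). Selenbp2, a male-biased binding protein of selenium, was at 151, 230.3 and 201 CPM in CDAHFD livers, against 1075, 853 and 789 CPM in ND livers (log2 FC -2.22 ± 0.22, adjusted p = 7.63e-05). Among the major urinary proteins, which bind pheromones and are secreted in bulk by male livers, Mup3 was at 529.9, 888 and 603 CPM in CDAHFD livers, against 18591, 16092 and 15468 CPM in ND livers (log2 FC -4.63 ± 0.36, adjusted p = 2.07e-05). Mup20 did not pass the test at 2954, 2627 and 2346 CPM in CDAHFD livers, against 3251, 3881 and 4018 CPM in ND livers (adjusted p = 0.119). Of the female-biased genes, 17 of the 27 listed had enough counts to be tested, and in this list 11 rose, 4 fell (Cyp17a1, Cyp4a14, Prlr, Hamp2) and 2 did not pass, of 17 tested (median 2.12). Genes that were low in the ND libraries could pass the count filter only through high CDAHFD libraries. Members low in both groups were left out, which can raise the share that rose and the median. Cyp2a4, a female-biased steroid hydroxylase, rose to 11.8, 54.2 and 41.5 CPM in CDAHFD livers, against 0.807, 0.413 and 0.706 CPM in ND livers (log2 FC 5.78 ± 0.62, adjusted p = 0.000102). Cyp2b9 was at 5.83, 41.5 and 24.8 CPM in CDAHFD livers, against 0.591, 0.118 and 0.7598 CPM in ND livers (log2 FC 5.58 ± 0.80, adjusted p = 0.000519). The estrogen sulfotransferase Sult1e1 was at 13.1, 25.1 and 7.55 CPM in CDAHFD livers, against 0.591, 1.53 and 0.543 CPM in ND livers (log2 FC 4.11 ± 0.54, adjusted p = 0.000338). Each stood above ND in every CDAHFD library, though the levels of Cyp2a4 and Cyp2b9 varied several-fold among these libraries and were lowest in replicate 1. The prolactin receptor Prlr, which is also female-biased, fell to 36.95, 60.2 and 45.7 CPM in CDAHFD livers, against 241, 227 and 142 CPM in ND livers (log2 FC -2.09 ± 0.24, adjusted p = 0.000163). In the growth hormone axis 5 rose (Jak2, Cish, Igfbp1, Igf1r, Igf2r), 6 fell and 6 did not pass, of 17 tested (median -0.15, or 0.51 with library size scaling, where 8 rose and 4 fell). The growth hormone receptor Ghr was at 251, 377 and 325 CPM in CDAHFD livers, against 1421, 997 and 1269 CPM in ND livers (log2 FC -1.95 ± 0.23, adjusted p = 0.000182). Igf1, the growth factor that the liver secretes under its signal, was at 672, 711 and 618 CPM in CDAHFD livers, against 1879, 1485 and 1250.4 CPM in ND livers (log2 FC -1.21 ± 0.22, adjusted p = 0.00175). Bcl6, a repressor of female-biased genes in male liver, fell to 25.2, 41.2 and 57.99 CPM in CDAHFD livers, against 83.9, 109 and 173 CPM in ND livers (log2 FC -1.56 ± 0.33, adjusted p = 0.00416). Of the feedback inhibitors of the same signal, Cish rose to 33.7, 33.99 and 11.9 CPM in CDAHFD livers, against 10.4, 5.37 and 1.52 CPM in ND livers (log2 FC 2.202 ± 0.59, adjusted p = 0.013). Socs2 overlapped between the groups at 84.5, 37.5 and 30.6 CPM in CDAHFD livers, against 91.6, 36.4 and 13.9 CPM in ND livers (adjusted p = 0.905).

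Cytochrome P450 genes of families 1 to 4 fell in most cases: 5 rose (Cyp1b1, Cyp2a22, Cyp3a57, Cyp4f16, Cyp4f18), 35 fell and 10 did not pass, of 50 tested, with a median of -1.38. Cyp2c29, a hydroxylase of drugs and steroids, was at 18.2, 30.4 and 30.1 CPM in CDAHFD livers, against 803, 1175 and 1024 CPM in ND livers (log2 FC -5.25 ± 0.29, adjusted p = 4.03e-06). Cyp1a2, an enzyme of caffeine and drug oxidation, was at 338, 471 and 359.8 CPM in CDAHFD livers, against 1374, 894 and 1168 CPM in ND livers (log2 FC -1.56 ± 0.23, adjusted p = 0.000635). Cyp2e1, the alcohol-oxidising form, did not pass the test (4247, 7904 and 6587 CPM in CDAHFD livers, against 9368, 10536 and 13102 CPM in ND livers, adjusted p = 0.0711), nor did Cyp3a11 (2213 ± 74.2 CPM in CDAHFD livers, against 3388 ± 1012 CPM in ND livers, adjusted p = 0.097). Cyp1b1, which is used by mesenchymal cells more than by hepatocytes, rose to 21.4, 17.5 and 22.1 CPM in CDAHFD livers, against 1.72, 1.06 and 1.85 CPM in ND livers (log2 FC 3.71 ± 0.24, adjusted p = 7.59e-06).

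Hepatocytes along the liver lobule differ in their tasks, with ammonia disposal and gluconeogenesis near the portal vein and glutamine synthesis near the central vein. Of the periportal genes, 1 rose (Cdh1), 16 fell and 4 did not pass, of 21 tested (median -1.71). Of the pericentral genes, 4 rose (Rhbg, Nkd1, Tuba8, Slc13a3), 8 fell and 12 did not pass, of 24 tested (median -0.40, or 0.25 with library size scaling, where 8 rose and 7 fell). The difference between the lists was not tested. Among periportal genes, Hal, the first step of histidine breakdown, was at 47.8, 195 and 119.8 CPM in CDAHFD livers, against 707, 720.4 and 684 CPM in ND livers (log2 FC -2.54 ± 0.42, adjusted p = 0.00117). Cyp2f2 was at 75.3, 229 and 156 CPM in CDAHFD livers, against 1073, 1183 and 966 CPM in ND livers (log2 FC -2.81 ± 0.37, adjusted p = 0.000318). The serine dehydratase Sds was at 20.2, 69.4 and 26.3 CPM in CDAHFD livers, against 171, 168 and 132 CPM in ND livers (log2 FC -2.02 ± 0.40, adjusted p = 0.00311). Among the CDAHFD libraries all of these were lowest in replicate 1 and highest in replicate 2. Glul, the glutamine synthetase of the cells around the central vein, did not pass at 1239, 1516 and 1385 CPM in CDAHFD livers, against 1629, 1701 and 1742 CPM in ND livers (adjusted p = 0.256). The Wnt targets Lgr5 and Axin2 of the same zone did not pass either (adjusted p = 0.269 and adjusted p = 0.38). Other pericentral genes did fall, among them Rgn (log2 FC -1.74 ± 0.22, adjusted p = 0.000269) and Oat (log2 FC -1.53 ± 0.23, adjusted p = 0.000725). In the urea cycle 0 rose, 9 fell and 1 did not pass, of 10 tested, and with library size scaling 0 rose and 6 fell. Asl was at 119.6, 244 and 148 CPM in CDAHFD livers, against 774, 501 and 612 CPM in ND livers (log2 FC -1.88 ± 0.29, adjusted p = 0.00073). Arg1, which releases urea, was at 442, 901 and 480.4 CPM in CDAHFD livers, against 2349, 1994 and 1797 CPM in ND livers (log2 FC -1.75 ± 0.30, adjusted p = 0.00148). Cps1, the entry step, was lower on average but too variable to pass, at 370.1, 1541 and 950.5 CPM in CDAHFD livers, against 2007, 2383 and 1848 CPM in ND livers (adjusted p = 0.0588). The gluconeogenic catalytic subunit G6pc fell to 116, 77.3 and 45.5 CPM in CDAHFD livers, against 1202, 389 and 319.9 CPM in ND livers (log2 FC -3.003 ± 0.54, adjusted p = 0.00175). Pck1 fell to 1348, 2417 and 1581 CPM in CDAHFD livers, against 5583, 4667 and 4365 CPM in ND livers (log2 FC -1.45 ± 0.29, adjusted p = 0.00327). Pck2, the mitochondrial counterpart of Pck1, rose to 23.5, 25.9 and 22.9 CPM in CDAHFD livers, against 8.87, 8.91 and 6.13 CPM in ND livers (log2 FC 1.595 ± 0.18, adjusted p = 0.000137).

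The transcription factors that hold hepatocyte identity were lower in part: 0 rose, 11 fell and 11 did not pass, of 22 tested, with a median of -0.60 that became 0.05 with library size scaling, where 4 rose and 4 fell. Hnf4a was at 344, 498 and 430.3 CPM in CDAHFD livers, against 773, 844 and 805 CPM in ND livers (log2 FC -0.93 ± 0.19, adjusted p = 0.00358). Cebpa was at 160.5, 219.6 and 191 CPM in CDAHFD livers, against 386, 367 and 409 CPM in ND livers (log2 FC -1.03 ± 0.16, adjusted p = 0.000945). Nuclear genes for subunits of the respiratory chain and ATP synthase fell in most cases: 0 rose, 68 fell and 6 did not pass, of 74 tested, with a median of -0.94. Under library size scaling only 10 of the 74 fell and the median was -0.28. Uqcrq was at 120.2, 105 and 101 CPM in CDAHFD livers, against 279.9, 207 and 265 CPM in ND livers (log2 FC -1.21 ± 0.16, adjusted p = 0.000344). Sdha did not pass (282 ± 94.9 CPM in CDAHFD livers, against 411 ± 46.1 CPM in ND livers, adjusted p = 0.111).

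**Figure D2:**
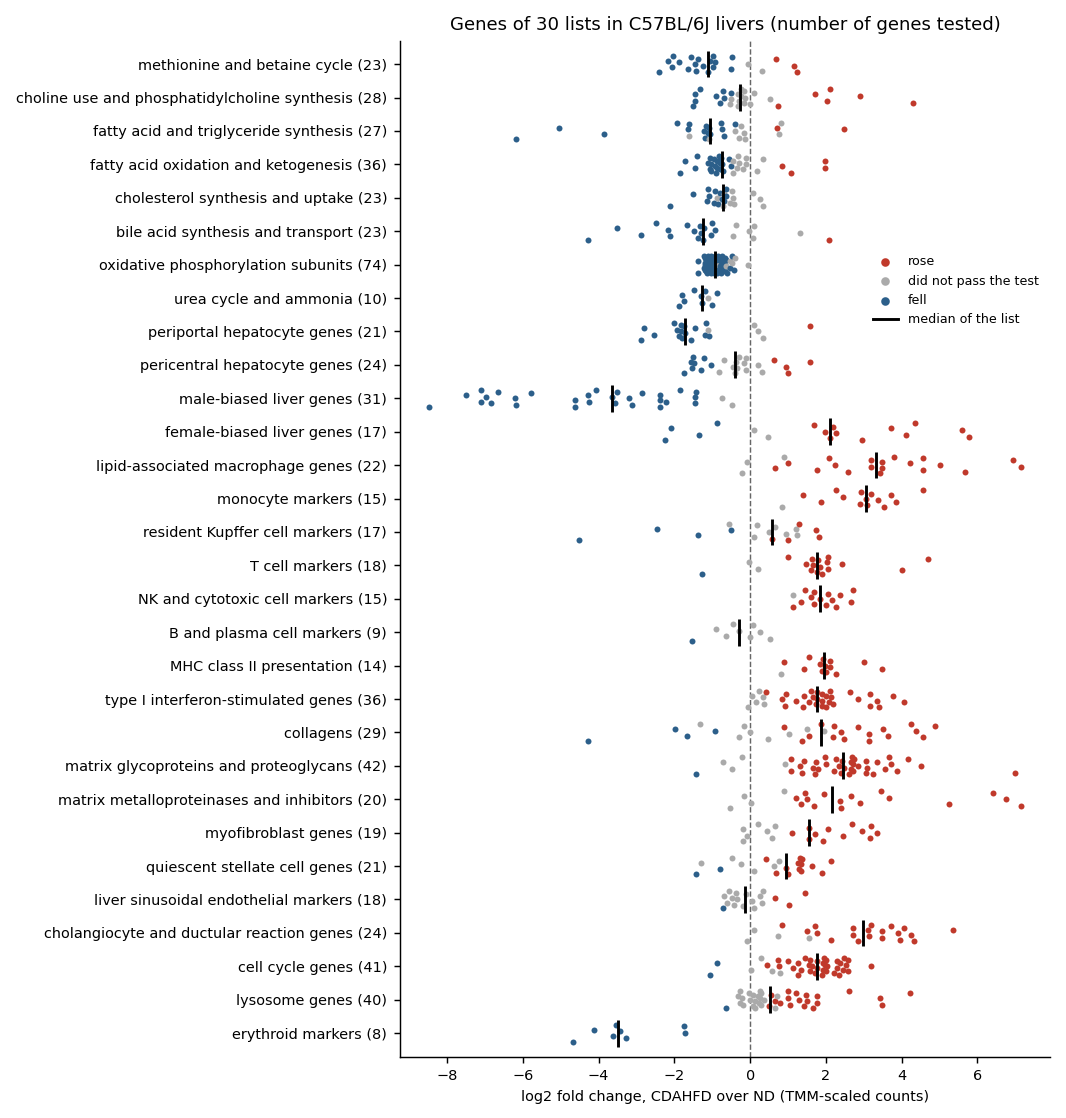
Log2 fold change (CDAHFD over ND, TMM-scaled counts) of each gene tested in 30 lists, with genes that rose in red, genes that fell in blue, the others in grey and the median of each list as a black bar. Medians ran down to -3.64 for male-biased genes and up to 3.32 for lipid-associated macrophage genes, and the sinusoidal endothelial list had a median of -0.15.

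Secreted hepatocyte proteins were affected by ND replicate 2. In the acute phase list, 1 rose (Il1rn), 11 fell and 12 did not pass, of 24 tested, but without ND replicate 2 the counts were 5 risen and 6 fallen. Without CDAHFD replicate 1 there were 6 fallen, without CDAHFD replicate 3 there were 5, and with library size scaling 2 rose and 5 fell. The summed level of the list was 19146, 24529.7 and 21226 CPM in CDAHFD livers, against 29826, 99649.6 and 34755 CPM in ND livers. Saa2, a serum amyloid whose reads are shared with its close copy Saa1, was at 62.9, 77.2 and 69.9 CPM in CDAHFD livers, against 67.6, 9428 and 228 CPM in ND livers (log2 FC -5.53 ± 1.58, adjusted p = 0.0176), so its fall rested on 1 library. Without that library its log2 fold change was -1.09 (adjusted p = 0.0636). Lipocalin 2, Lcn2, a bacteriostatic protein of stressed hepatocytes and neutrophils, was at 1019.7, 664 and 694 CPM in CDAHFD livers, against 20.8, 1434 and 41.5 CPM in ND livers. With all libraries it did not pass (log2 FC 0.67 ± 1.20, adjusted p = 0.679). Without ND replicate 2 Lcn2 rose with a log2 fold change of 4.66 (adjusted p = 0.000114). In this library neutrophil granule genes were high too, with Prtn3 at 1.41, 0.949 and 1.18 CPM in CDAHFD livers, against 1.13, 29.7 and 2.17 CPM in ND livers. The part of neutrophils in the acute phase values was not tested. The serpin Serpina3k, one of a family of close copies, fell without overlap to 1408, 2609 and 1905 CPM in CDAHFD livers, against 14360.4, 20447 and 13893 CPM in ND livers (log2 FC -3.04 ± 0.37, adjusted p = 0.000207). Complement and coagulation factors made by hepatocytes were lower as well (4 rose (Cfp, C1qa, C1qb, C1qc), 25 fell and 12 did not pass, of 41 tested, or with library size scaling 5 rose and 16 fell), for example the mannose-binding lectin Mbl2 at 75.8, 101 and 111 CPM in CDAHFD livers, against 441, 609.7 and 477 CPM in ND livers (log2 FC -2.41 ± 0.21, adjusted p = 3.28e-05) and prothrombin, F2, at 716, 1261 and 1082 CPM in CDAHFD livers, against 1805, 2371 and 2017 CPM in ND livers (log2 FC -1.02 ± 0.26, adjusted p = 0.0105). C1qa, C1qb and C1qc, the subunits of the first complement component that are made by macrophages, were among the 4 that rose, C1qb to 148, 165 and 202 CPM in CDAHFD livers, against 38.99, 51.6 and 42.1 CPM in ND livers (log2 FC 1.96 ± 0.17, adjusted p = 3.28e-05).

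Macrophage genes were taken as a list known from recruited, lipid-loaded cells and a list known from the resident Kupffer cells. The origin of the cells was not measured. In the first list 19 rose, 0 fell and 3 did not pass, of 22 tested, with a median of 3.32. Galectin 3, Lgals3, was at 399, 292 and 293 CPM in CDAHFD livers, against 9.95, 9.09 and 11.6 CPM in ND livers (log2 FC 5.01 ± 0.20, adjusted p = 1.27e-06). Cd63, a protein of late endosomes, was at 156, 90.7 and 91.1 CPM in CDAHFD livers, against 6.399, 5.08 and 6.46 CPM in ND livers (log2 FC 4.23 ± 0.25, adjusted p = 5.37e-06). Capg, an actin capping protein of macrophages, was at 81.6, 74.7 and 80.3 CPM in CDAHFD livers, against 3.07, 3.66 and 3.36 CPM in ND livers (log2 FC 4.55 ± 0.14, adjusted p = 3.75e-07). The proton pump subunit Atp6v0d2 varied little within the groups, at 88.9, 86.9 and 85.1 CPM in CDAHFD livers, against 8.17, 7.73 and 8.304 CPM in ND livers (log2 FC 3.43 ± 0.12, adjusted p = 6.63e-07). Osteopontin, Spp1, which both macrophages and bile duct cells make, was at 2508, 715 and 959.8 CPM in CDAHFD livers, against 97.7, 254 and 105 CPM in ND livers (log2 FC 3.19 ± 0.55, adjusted p = 0.00143) and was highest in CDAHFD replicate 1. Of the monocyte markers, 14 rose, 0 fell and 1 did not pass, of 15 tested. Ccr2, the receptor that draws monocytes out of blood, was at 57.2, 35.4 and 46.6 CPM in CDAHFD livers, against 4.03, 8.32 and 6.35 CPM in ND livers (log2 FC 2.897 ± 0.27, adjusted p = 5.48e-05). Its ligand Ccl2 was at 23.1, 16.7 and 21.8 CPM in CDAHFD livers, against 1.88, 0.5903 and 2.71 CPM in ND livers (log2 FC 3.55 ± 0.40, adjusted p = 0.000136).

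Of the Kupffer cell markers 5 rose (Il18bp, Id3, Cd207, C1qa, Emr1), 4 fell (Timd4, Cd163, Fcna, Nr1h3) and 8 did not pass, of 17 tested, which are shares close to those of all genes, and with library size scaling 9 rose and 2 fell. Timd4, a phosphatidylserine receptor of long-lived Kupffer cells, fell to 0.322, 2.69 and 3.07 CPM in CDAHFD livers, against 11.6, 10.9 and 11.3 CPM in ND livers (log2 FC -2.47 ± 0.57, adjusted p = 0.00667). The hemoglobin scavenger receptor Cd163 fell to 0.0878, 3.42 and 1.07 CPM in CDAHFD livers, against 33.4, 43.5 and 28.98 CPM in ND livers (log2 FC -4.51 ± 0.72, adjusted p = 0.000948). Clec4f, the lectin held to be most specific to Kupffer cells in the mouse, was at 20.7, 142 and 133 CPM in CDAHFD livers, against 157, 146 and 131 CPM in ND livers and did not pass (adjusted p = 0.431). The CDAHFD libraries differed among themselves for these genes. Marco, a scavenger receptor for bacteria, was at 2.78, 39.4 and 69.4 CPM in CDAHFD livers, against 8.44, 21.8 and 17.9 CPM in ND livers (log2 FC 1.22 ± 0.82, adjusted p = 0.254). Cd5l was at 58.7, 346 and 382 CPM in CDAHFD livers, against 78.1, 145 and 112 CPM in ND livers (log2 FC 1.23 ± 0.56, adjusted p = 0.0975). For Clec4f, Marco and Cd5l alike, CDAHFD replicate 1 lay below every ND library. Without it 11 of the 17 markers rose and 4 fell, Marco with a log2 fold change of 1.75 (adjusted p = 0.00497), whereas Clec4f then stood at -0.08 (adjusted p = 0.609).

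**Figure D3:**
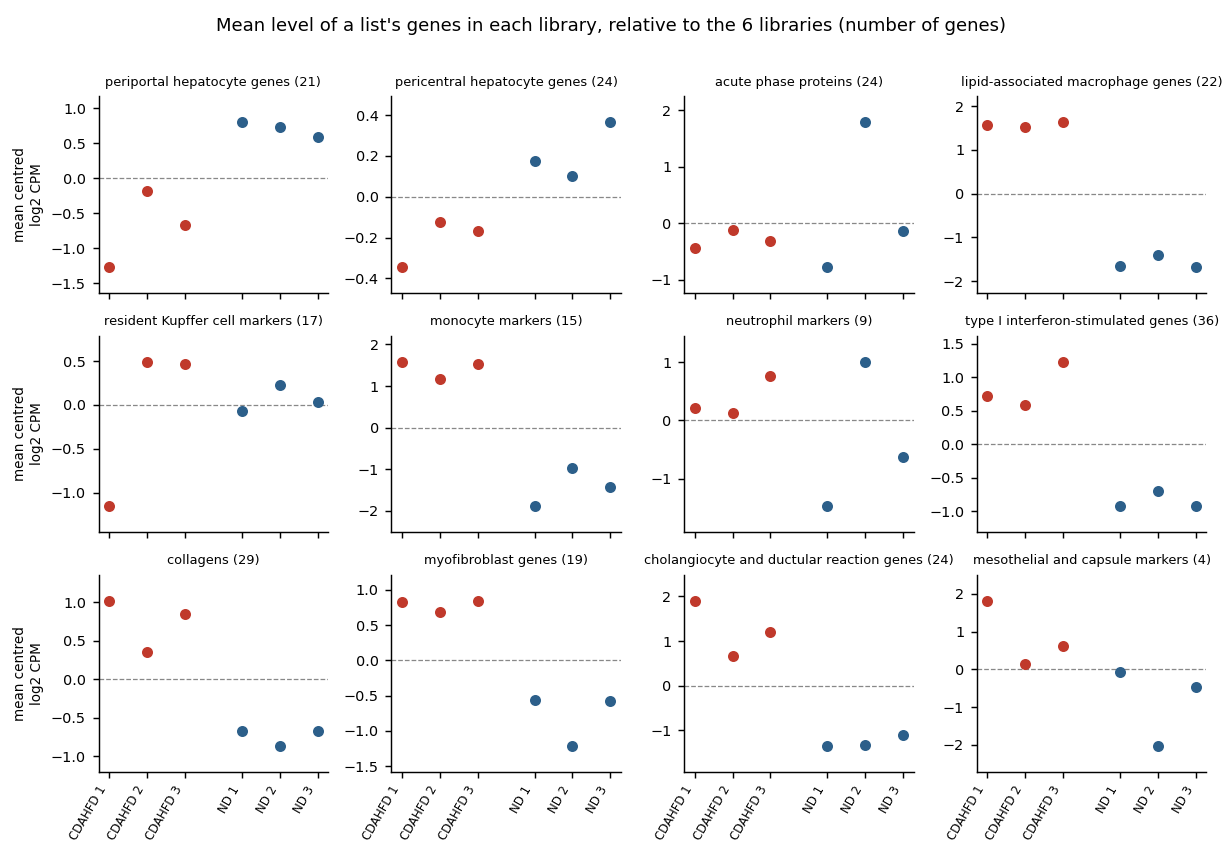
Mean of the centred log2 CPM (each gene relative to its mean over the 6 libraries) of the genes tested in 12 lists, for each CDAHFD library (red, left) and each ND library (blue, right). Resident Kupffer cell markers were low in CDAHFD replicate 1 (-1.16) and not in replicates 2 and 3 (0.49 and 0.47), and acute phase proteins were high in ND replicate 2 (1.79).

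Lymphocyte markers rose for T and NK cells, and almost no B cell marker passed the test. Of the T cell markers 15 rose, 1 fell (Zap70) and 2 did not pass, of 18 tested, and of the NK and cytotoxic markers 14 rose, 0 fell and 1 did not pass, of 15 tested. Cd8a was at 5.48, 5.64 and 7.38 CPM in CDAHFD livers, against 1.398, 1.95 and 1.14 CPM in ND livers (log2 FC 2.04 ± 0.29, adjusted p = 0.000509). Cd4 overlapped between the groups at 4.39, 2.71 and 2.79 CPM in CDAHFD livers, against 2.96, 3.601 and 2.06 CPM in ND livers (adjusted p = 0.645). The receptor of interleukin 7, Il7r, which some macrophages also carry, rose to 21.4, 18.4 and 21.7 CPM in CDAHFD livers, against 0.753, 1.06 and 2.01 CPM in ND livers (log2 FC 4.002 ± 0.31, adjusted p = 1.96e-05). Granzyme B, Gzmb, was at 4.83, 8.11 and 6.31 CPM in CDAHFD livers, against 0.914, 1.42 and 1.36 CPM in ND livers (log2 FC 2.38 ± 0.31, adjusted p = 0.000321). The NK receptor Ncr1 was at 2.31, 1.74 and 2.197 CPM in CDAHFD livers, against 0.323, 0.177 and 0.434 CPM in ND livers (log2 FC 2.71 ± 0.43, adjusted p = 0.000897). Of 9 B and plasma cell markers tested, 0 rose and 1 fell. Cd79a, part of the B cell receptor, was at 1.58, 2.39 and 2.06 CPM in CDAHFD livers, against 1.67, 2.01 and 2.33 CPM in ND livers (adjusted p = 0.992). In the list of antigen presentation by MHC class II 13 rose, 0 fell and 1 did not pass, of 14 tested. The invariant chain Cd74 was at 293, 266 and 405 CPM in CDAHFD livers, against 84.7, 68.8 and 101 CPM in ND livers (log2 FC 1.92 ± 0.21, adjusted p = 0.000122). The master regulator Ciita was at 7.12, 5.995 and 10.5 CPM in CDAHFD livers, against 1.77, 1.59 and 1.52 CPM in ND livers (log2 FC 2.27 ± 0.29, adjusted p = 0.000261). In the list of presentation by MHC class I 12 rose, 1 fell and 5 did not pass, of 18 tested (median 0.61). With library size scaling 15 rose and 0 fell, with a median of 1.27. The class I heavy chain H2-K1 (1808 ± 47.3 CPM in CDAHFD livers, against 2097 ± 55.2 CPM in ND livers, adjusted p = 0.412) and its light chain B2m (3191 ± 462 CPM in CDAHFD livers, against 3537 ± 436 CPM in ND livers, adjusted p = 0.65), which hepatocytes also make, did not pass.

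Interferon-stimulated genes rose in all but a few cases. Of the type I list 30 rose, 0 fell and 6 did not pass, of 36 tested, with a median of 1.78. Most of these genes are switched on through the interferon-stimulated response element (ISRE), whose core was searched as 2 GAAA runs with any 2 bases between them, or on the other strand 2 TTTC runs likewise spaced, in the 250 bases before each RefSeq gene start (table of build GRCm38.p6). A match was found for 9 of the 26 members that had a sequence there (34.6%), for 7 of 21 that rose (33.3%) and for 3.46% of all 27025 genes of the table. A match is a description of these letters and not a measured site. The windows of 3 members that rose are shown because they hold this core, with all matches in capitals. Neighbouring matches among the 3 of Isg15 overlap, and the first and the last do not.
Isg15 (chr4:156200819-156201068, minus strand): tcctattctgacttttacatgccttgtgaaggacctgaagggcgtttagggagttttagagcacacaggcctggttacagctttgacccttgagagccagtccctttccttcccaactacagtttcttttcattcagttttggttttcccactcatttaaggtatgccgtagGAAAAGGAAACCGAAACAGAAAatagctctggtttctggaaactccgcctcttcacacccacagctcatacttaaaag
Ifit1 (chr19:34640639-34640888, plus strand): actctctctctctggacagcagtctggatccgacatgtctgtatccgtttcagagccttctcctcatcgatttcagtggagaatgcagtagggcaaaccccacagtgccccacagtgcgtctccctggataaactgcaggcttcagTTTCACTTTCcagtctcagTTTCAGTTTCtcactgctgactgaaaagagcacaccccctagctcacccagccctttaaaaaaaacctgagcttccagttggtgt
Rsad2 (chr12:26456453-26456702, minus strand): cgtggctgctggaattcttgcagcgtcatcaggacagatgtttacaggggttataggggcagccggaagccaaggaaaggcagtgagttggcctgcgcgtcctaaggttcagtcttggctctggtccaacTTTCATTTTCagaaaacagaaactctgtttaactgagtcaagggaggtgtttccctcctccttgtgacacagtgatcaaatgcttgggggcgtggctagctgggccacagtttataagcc

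The genes of these windows stood above ND in every CDAHFD library but at different heights. Isg15, a ubiquitin-like protein, was at 75.3, 42.7 and 109.8 CPM in CDAHFD livers, against 17.3, 22.5 and 16.9 CPM in ND livers (log2 FC 2.01 ± 0.31, adjusted p = 0.000738). Ifit1, which binds foreign RNA, was at 93.2, 90.7 and 229 CPM in CDAHFD livers, against 31.2, 35.4 and 35.7 CPM in ND livers (log2 FC 2.01 ± 0.34, adjusted p = 0.00121). Rsad2, an antiviral enzyme, was at 57.98, 98.7 and 216 CPM in CDAHFD livers, against 28.2, 29.6 and 29.96 CPM in ND livers (log2 FC 2.09 ± 0.40, adjusted p = 0.00249). Each was highest in CDAHFD replicate 3, and no CDAHFD value reached down to ND. The chemokine Cxcl10 followed the same pattern, at 26.1, 31.9 and 53.6 CPM in CDAHFD livers, against 6.67, 4.604 and 9.99 CPM in ND livers (log2 FC 2.39 ± 0.33, adjusted p = 0.000457). Among the members that did not pass was Ifitm3, named after its values were seen, at 669, 484 and 544 CPM in CDAHFD livers, against 534, 692 and 543 CPM in ND livers (adjusted p = 0.831). The GTPases induced by interferon gamma rose in most cases (12 rose, 1 fell (Gbp2b) and 2 did not pass, of 15 tested), with Gbp2 at 22.8, 29.1 and 46.9 CPM in CDAHFD livers, against 5.22, 6.91 and 6.62 CPM in ND livers (log2 FC 2.398 ± 0.27, adjusted p = 0.000142). Iigp1 overlapped at 725, 799.6 and 1199.8 CPM in CDAHFD livers, against 974, 1013 and 830.1 CPM in ND livers (adjusted p = 0.886).

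Chemokines and innate sensors rose in most cases. Of the chemokines 15 rose, 4 fell (Ccl25, Ccl27a, Cxcl12, Cxcl13) and 3 did not pass, of 22 tested. Cxcl5, which attracts neutrophils, was at 8.87, 5.13 and 8.14 CPM in CDAHFD livers, against 0.323, 0.118 and 0.217 CPM in ND livers (log2 FC 5.03 ± 0.41, adjusted p = 2.67e-05). Cx3cl1, the ligand of Cx3cr1, was at 19.9, 11.01 and 16.6 CPM in CDAHFD livers, against 1.02, 1.77 and 1.41 CPM in ND livers (log2 FC 3.498 ± 0.30, adjusted p = 3.45e-05). Cxcl12, which stromal cells and hepatocytes make in the normal liver, fell to 366, 394 and 406 CPM in CDAHFD livers, against 551, 707 and 644 CPM in ND livers (log2 FC -0.71 ± 0.17, adjusted p = 0.0079). Among cytokines, inflammasome genes and Toll-like receptors 25 rose, 2 fell (Il18, Tlr5) and 6 did not pass, of 33 tested. Tumor necrosis factor, Tnf, was at 7.96, 6.08 and 7.89 CPM in CDAHFD livers, against 0.538, 0.708 and 1.14 CPM in ND livers (log2 FC 3.19 ± 0.32, adjusted p = 8.24e-05). The lipopolysaccharide co-receptor Cd14 was at 49.2, 44.5 and 48.9 CPM in CDAHFD livers, against 3.66, 8.15 and 4.505 CPM in ND livers (log2 FC 3.13 ± 0.27, adjusted p = 3.01e-05). Il1b overlapped between the groups at 7.41, 9.47 and 13.5 CPM in CDAHFD livers, against 8.604, 3.42 and 4.83 CPM in ND livers (adjusted p = 0.0739). Its antagonist Il1rn rose to 67.2, 79.5 and 80.8 CPM in CDAHFD livers, against 5.11, 13.3 and 12.3 CPM in ND livers (log2 FC 2.89 ± 0.30, adjusted p = 9.51e-05). Of the 17 neutrophil markers 9 had enough counts to be tested, and 2 rose (Mmp8, Trem1), 1 fell (Prtn3) and 6 did not pass, of 9 tested. Without ND replicate 2 the counts were 5 risen and 0 fallen of 9, and with library size scaling 4 rose and 0 fell. S100a8 and S100a9 overlapped (adjusted p = 0.752 and adjusted p = 0.744).

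Matrix genes rose broadly. Of the collagens 17 rose, 4 fell (Col5a3, Col18a1, Col20a1, Col25a1) and 8 did not pass, of 29 tested, with a median of 1.86. Col1a1, the main chain of scar collagen, was at 393, 253 and 389.7 CPM in CDAHFD livers, against 8.93, 14.9 and 11.5 CPM in ND livers (log2 FC 4.88 ± 0.27, adjusted p = 4.03e-06). Col3a1, its partner in early scar, was at 967, 548 and 815 CPM in CDAHFD livers, against 36.03, 40.97 and 44.7 CPM in ND livers (log2 FC 4.26 ± 0.25, adjusted p = 5.18e-06). The microfibrillar Col6a3 was at 207, 109 and 172 CPM in CDAHFD livers, against 17.2, 12.04 and 13.3 CPM in ND livers (log2 FC 3.52 ± 0.26, adjusted p = 1.41e-05). Replicate 2 had the lowest level of each of these among the CDAHFD libraries. Col18a1, a basement membrane collagen that hepatocytes make, fell to 302, 569 and 525 CPM in CDAHFD livers, against 809, 964 and 882 CPM in ND livers (log2 FC -0.93 ± 0.25, adjusted p = 0.0137). Of the glycoproteins and proteoglycans 37 rose, 1 fell (Vtn) and 4 did not pass, of 42 tested. Tenascin C, Tnc, a protein of wounds, was at 22.3, 28.1 and 32.1 CPM in CDAHFD livers, against 1.18, 1.30 and 1.14 CPM in ND livers (log2 FC 4.51 ± 0.21, adjusted p = 2.51e-06). Lumican, Lum, which binds collagen fibrils, was at 193, 110.2 and 174 CPM in CDAHFD livers, against 7.69, 11.3 and 7.44 CPM in ND livers (log2 FC 4.17 ± 0.26, adjusted p = 6.66e-06). Fibronectin, Fn1, is made in quantity by hepatocytes and did not pass at 674, 1199 and 1167 CPM in CDAHFD livers, against 1239, 2389 and 1358 CPM in ND livers (adjusted p = 0.0997). Of the enzymes that modify and link collagen 11 rose, 0 fell and 6 did not pass, of 17 tested. Lox, which cross-links collagen and elastin, was at 22.02, 17.4 and 23.995 CPM in CDAHFD livers, against 0.968, 0.118 and 0.706 CPM in ND livers (log2 FC 5.11 ± 0.42, adjusted p = 2.67e-05). Serpinh1, the chaperone of procollagen, was at 148, 82.8 and 102 CPM in CDAHFD livers, against 17.1, 10.7 and 15.2 CPM in ND livers (log2 FC 2.95 ± 0.25, adjusted p = 3.27e-05).

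Among matrix metalloproteinases and their inhibitors 16 rose, 0 fell and 4 did not pass, of 20 tested. The gelatinase Mmp2 was at 39.1, 25.8 and 41.9 CPM in CDAHFD livers, against 3.55, 2.302 and 2.497 CPM in ND livers (log2 FC 3.67 ± 0.25, adjusted p = 1.07e-05). Mmp14, which activates it at the cell surface, was at 73.6, 80.8 and 98.2 CPM in CDAHFD livers, against 25.2, 44.98 and 29.9 CPM in ND livers (log2 FC 1.34 ± 0.22, adjusted p = 0.000997). The inhibitors Timp2 and Timp3 rose with them, Timp2 to 80.3, 60.1 and 85.95 CPM in CDAHFD livers, against 12.2, 12.2 and 11.2 CPM in ND livers (log2 FC 2.67 ± 0.16, adjusted p = 5.91e-06). Mmp9 overlapped between the groups (adjusted p = 0.138). Of the ligands, receptors and SMADs of the TGF-beta and PDGF pathways 19 rose, 1 fell (Inhbc) and 6 did not pass, of 26 tested. Tgfb1, the best-known driver of collagen synthesis in stellate cells, was at 20.2, 31.8 and 35.2 CPM in CDAHFD livers, against 4.46, 7.26 and 6.84 CPM in ND livers (log2 FC 2.23 ± 0.26, adjusted p = 0.000162). Tgfb2 was at 9.66, 6.81 and 8.79 CPM in CDAHFD livers, against 0.753, 0.708 and 0.868 CPM in ND livers (log2 FC 3.43 ± 0.27, adjusted p = 2.22e-05). The integrin subunit Itgb6, which releases active TGF-beta on bile duct cells, was at 4.89, 2.25 and 3.21 CPM in CDAHFD livers, against 0.108, 0.236 and 0.217 CPM in ND livers (log2 FC 4.18 ± 0.49, adjusted p = 0.00018).

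Stellate cells store vitamin A when quiescent and become contractile myofibroblasts when activated, and genes of both states were higher in CDAHFD livers. Of the quiescent stellate cell genes 13 rose, 2 fell (Angptl6, Vipr1) and 6 did not pass, of 21 tested, and of the myofibroblast genes 12 rose, 0 fell and 7 did not pass, of 19 tested. Lrat, the enzyme that esterifies vitamin A, was at 38.3, 45.3 and 49.03 CPM in CDAHFD livers, against 23.6, 17.2 and 25.6 CPM in ND livers (log2 FC 0.997 ± 0.17, adjusted p = 0.00151). Hgf, a growth factor for hepatocytes, was at 11.4, 13.2 and 13.9 CPM in CDAHFD livers, against 3.87, 2.72 and 3.64 CPM in ND livers (log2 FC 1.91 ± 0.21, adjusted p = 0.00012). Pdgfrb was at 79.2, 57.9 and 70.97 CPM in CDAHFD livers, against 12.2, 12.3 and 13.8 CPM in ND livers (log2 FC 2.44 ± 0.15, adjusted p = 6.51e-06). Smooth muscle actin, Acta2, was at 7.67, 14.5 and 18.9 CPM in CDAHFD livers, against 2.15, 1.18 and 2.99 CPM in ND livers (log2 FC 2.69 ± 0.41, adjusted p = 0.000689). Sinusoidal endothelial markers mostly did not pass the test (3 rose (Stab1, Lyve1, Rspo3), 1 fell (Ehd3) and 14 did not pass, of 18 tested, median -0.15, or 0.50 with library size scaling, where 8 rose and 0 fell). Lyve1, a receptor of sinusoids and lymph vessels, rose to 19.4, 26.7 and 27.9 CPM in CDAHFD livers, against 5.86, 8.09 and 12.97 CPM in ND livers (log2 FC 1.46 ± 0.28, adjusted p = 0.00241). Kdr did not pass (27.6 ± 7.27 CPM in CDAHFD livers, against 40.6 ± 14.8 CPM in ND livers, adjusted p = 0.115). Of the other endothelial markers 6 rose, 2 fell and 9 did not pass, of 17 tested (median 0.42). With library size scaling 11 rose and 1 fell, with a median of 1.09. The adhesion molecule Vcam1 rose to 92.2, 99.8 and 117 CPM in CDAHFD livers, against 14.5, 17.7 and 16.8 CPM in ND livers (log2 FC 2.66 ± 0.15, adjusted p = 4.03e-06). Cd34, which marks capillaries rather than sinusoids but also other stromal cells, rose to 24.3, 8.87 and 17.4 CPM in CDAHFD livers, against 2.04, 0.5903 and 1.36 CPM in ND livers (log2 FC 3.65 ± 0.47, adjusted p = 0.000308).

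**Figure D4:**
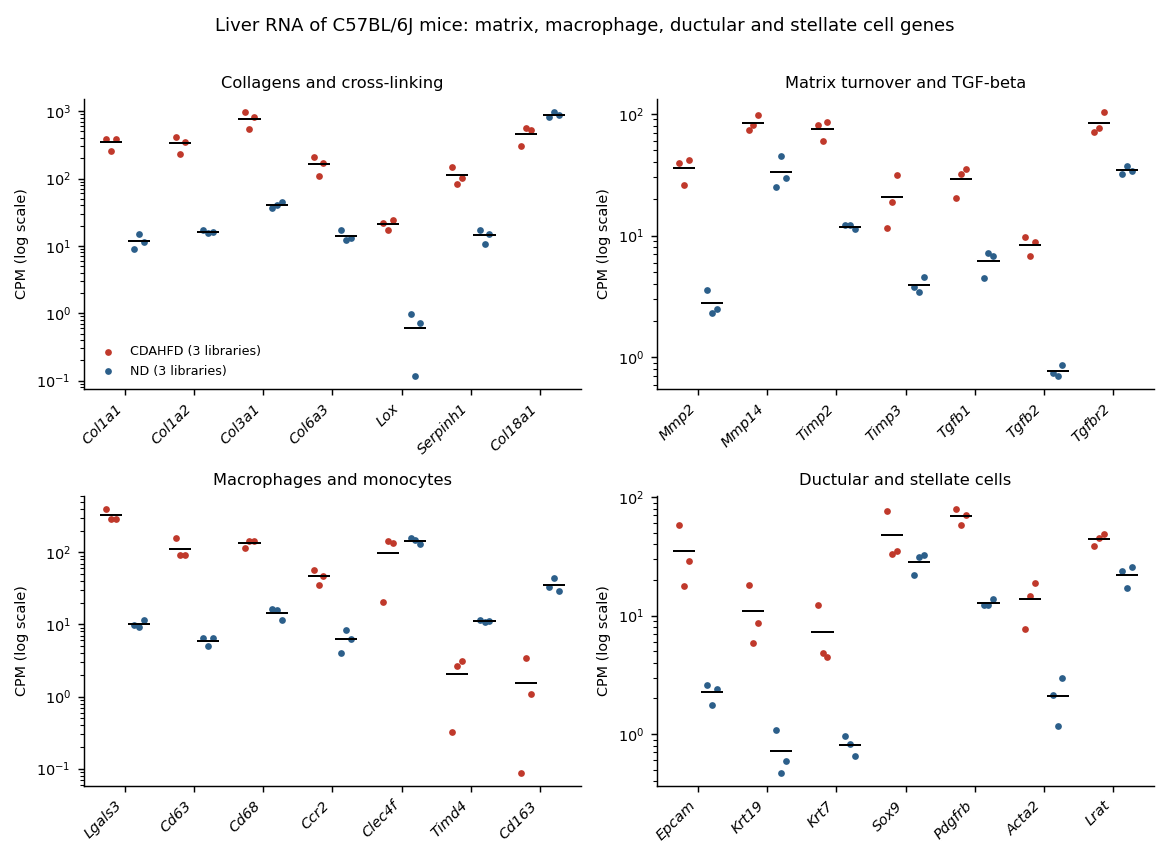
CPM (log scale) of 28 genes in 4 panels, with 3 CDAHFD libraries (red, left) and 3 ND libraries (blue, right) per gene and the group mean as a black bar. Col1a1, Lox, Lgals3 and Epcam lay higher in all CDAHFD libraries than in any ND library, Col18a1, Timd4 and Cd163 lay lower, and Clec4f overlapped.

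Genes of bile duct cells and of the ductular reaction, the sprouting of small ducts in injured liver, rose in most cases: 20 rose, 0 fell and 4 did not pass, of 24 tested, with a median of 2.97. Their mean centred log2 level was 1.89, 0.67 and 1.21 in CDAHFD livers, against -1.34, -1.32 and -1.11 in ND livers. Epcam was at 57.9, 17.7 and 28.7 CPM in CDAHFD livers, against 2.58, 1.77 and 2.39 CPM in ND livers (log2 FC 3.94 ± 0.44, adjusted p = 0.000127). The keratin Krt19 was at 18.1, 5.89 and 8.65 CPM in CDAHFD livers, against 1.08, 0.472 and 0.597 CPM in ND livers (log2 FC 3.91 ± 0.50, adjusted p = 0.000293). Each was highest in CDAHFD replicate 1, and replicate 2 was the lowest of the CDAHFD libraries. Without replicate 1, 18 of the 23 genes then tested rose and the median was 2.50. Sox9, a factor of duct cells and of hepatocytes in transition, did not pass at 76.1, 32.8 and 34.98 CPM in CDAHFD livers, against 22.2, 31.3 and 32.2 CPM in ND livers (log2 FC 0.75 ± 0.31, adjusted p = 0.0783). Of 11 mesothelial markers, which belong to the liver capsule, only 4 had enough counts to be tested, with log2 fold changes from -1.25 to 3.25. The summed level of these 4 was also highest in CDAHFD replicate 1, at 53.6, 16.9 and 20.6 CPM in CDAHFD livers, against 8.93, 2.66 and 7.65 CPM in ND livers. The part of mesothelial cells in the values of this paragraph was not tested.

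Cell cycle genes rose in most cases: 35 rose, 2 fell (Tk1, E2f8) and 4 did not pass, of 41 tested. Cyclin D1, Ccnd1, which takes hepatocytes out of rest, was at 79.97, 172 and 179.9 CPM in CDAHFD livers, against 11.6, 22.2 and 13.7 CPM in ND livers (log2 FC 3.19 ± 0.35, adjusted p = 0.000119). Mcm6, part of the replicative helicase, was at 25.6, 31.6 and 40.8 CPM in CDAHFD livers, against 5.48, 8.97 and 5.699 CPM in ND livers (log2 FC 2.28 ± 0.24, adjusted p = 0.000106). Ccnb1, a cyclin of mitosis, was at 5.33, 8.73 and 11.6 CPM in CDAHFD livers, against 2.42, 2.01 and 0.597 CPM in ND livers (log2 FC 2.35 ± 0.47, adjusted p = 0.00296). The motif TTTGAA (or TTCAAA), the cell cycle homology region, was in the 250 bases before the start of 34.4% of the 32 members with a sequence and of 18.3% of all genes. Of the p53 targets and senescence genes 12 rose, 1 fell (Bbc3) and 8 did not pass, of 21 tested. The cell cycle inhibitor Cdkn1a was at 20.6, 26.6 and 30.9 CPM in CDAHFD livers, against 5.59, 11.6 and 2.71 CPM in ND livers (log2 FC 1.98 ± 0.42, adjusted p = 0.00419). Mdm2 (85.02 ± 4.15 CPM in CDAHFD livers, against 78.6 ± 2.75 CPM in ND livers, adjusted p = 0.437) and Gdf15 (9.64 ± 2.15 CPM in CDAHFD livers, against 8.41 ± 6.44 CPM in ND livers, adjusted p = 0.767) did not pass.

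Genes of the integrated stress and unfolded protein responses did not share a direction under TMM: 10 rose, 6 fell and 10 did not pass, of 26 tested, with a median of 0.14. With library size scaling 15 rose and 0 fell, with a median of 0.79, and without CDAHFD replicate 3 only 3 fell. Atf3, a factor induced by many stresses, was at 64.7, 54.01 and 54.4 CPM in CDAHFD livers, against 2.96, 1.53 and 1.79 CPM in ND livers (log2 FC 4.78 ± 0.24, adjusted p = 2.87e-06). Psat1, of serine synthesis, was at 5.92, 10.6 and 7.38 CPM in CDAHFD livers, against 0.376, 0.472 and 0.543 CPM in ND livers (log2 FC 4.09 ± 0.35, adjusted p = 2.99e-05). Asns, which makes asparagine, was at 11.7, 23.4 and 12.1 CPM in CDAHFD livers, against 3.28, 6.67 and 4.02 CPM in ND livers (log2 FC 1.76 ± 0.35, adjusted p = 0.0029). These are targets of the response to missing amino acids, but Atf4 itself, whose control is largely by translation, fell 1.35-fold (log2 FC -0.44 ± 0.16, adjusted p = 0.0472), a fall that became a log2 fold change of 0.22 with library size scaling. The endoplasmic reticulum chaperone Hspa5 did not pass (955 ± 245 CPM in CDAHFD livers, against 1372 ± 136 CPM in ND livers, adjusted p = 0.0987). Sdf2l1 fell (29.4 ± 7.49 CPM in CDAHFD livers, against 51.001 ± 4.19 CPM in ND livers, adjusted p = 0.00722). Targets of the oxidant sensor NRF2 were mixed too under TMM (12 rose, 3 fell (Gclm, Gsta3, Me1) and 12 did not pass, of 27 tested, median 0.38), but with library size scaling 23 rose and 1 fell, with a median of 1.02. Srxn1, which repairs peroxiredoxins, was at 231, 229 and 224 CPM in CDAHFD livers, against 49.5, 61.5 and 47.4 CPM in ND livers (log2 FC 2.11 ± 0.14, adjusted p = 1.05e-05). Nqo1 was at 15.5, 17.5 and 17.9 CPM in CDAHFD livers, against 3.33, 6.08 and 3.69 CPM in ND livers (log2 FC 1.96 ± 0.24, adjusted p = 0.000223). Gclc of glutathione synthesis did not pass (435 ± 73.5 CPM in CDAHFD livers, against 414 ± 76.6 CPM in ND livers, adjusted p = 0.8).

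Genes of fetal liver and of liver tumors rose in most cases (11 rose, 2 fell (Tff3, Peg3) and 1 did not pass, of 14 tested). Ly6d, a surface protein, was at 147, 109.5 and 157 CPM in CDAHFD livers, against 3.82, 10.5 and 4.02 CPM in ND livers (log2 FC 4.501 ± 0.38, adjusted p = 2.88e-05). Afp, the fetal counterpart of albumin, was at 6.24, 8.73 and 7.94 CPM in CDAHFD livers, against 3.87, 5.25 and 3.91 CPM in ND livers (log2 FC 0.82 ± 0.23, adjusted p = 0.0173). Glycolytic isoenzymes split in direction: 9 rose, 5 fell (among them Khk, Pfkm, Ldhd, Slc2a2) and 6 did not pass, of 20 tested, with a median of -0.16, or 0.50 with library size scaling, where 10 rose and 3 fell. Khk, which commits fructose, was at 84.2, 111 and 88.2 CPM in CDAHFD livers, against 293, 265 and 313 CPM in ND livers (log2 FC -1.62 ± 0.16, adjusted p = 6.80e-05). Hk2 was at 15.7, 16.5 and 16.7 CPM in CDAHFD livers, against 3.93, 3.19 and 3.47 CPM in ND livers (log2 FC 2.21 ± 0.17, adjusted p = 2.19e-05). Pkm, the pyruvate kinase of non-liver cells, was at 91.5, 131 and 142 CPM in CDAHFD livers, against 12.5, 15.4 and 15.8 CPM in ND livers (log2 FC 3.06 ± 0.19, adjusted p = 7.09e-06). Of the lysosome genes 19 rose, 1 fell (Lamp2) and 20 did not pass, of 40 tested (median 0.53), but with library size scaling 37 rose and 0 fell (median 1.17). The protease Ctsd was at 699.8, 1157 and 1240.1 CPM in CDAHFD livers, against 266, 339.9 and 299.6 CPM in ND livers (log2 FC 1.77 ± 0.25, adjusted p = 0.000467). The membrane protein Lamp1 overlapped between the groups (786 ± 249.9 CPM in CDAHFD livers, against 713 ± 96.4 CPM in ND livers, adjusted p = 0.693).

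Of the iron genes 5 rose (Tfrc, Slc11a1, Heph, Id1, Smad7), 7 fell and 8 did not pass, of 20 tested, and with library size scaling 10 rose and 2 fell. The iron hormone gene Hamp was at 394, 262 and 156 CPM in CDAHFD livers, against 436, 567 and 683 CPM in ND livers (log2 FC -1.05 ± 0.32, adjusted p = 0.0227). The transferrin receptor of hepatocytes, Tfr2, was at 105, 168 and 147 CPM in CDAHFD livers, against 382, 557 and 463 CPM in ND livers (log2 FC -1.74 ± 0.22, adjusted p = 0.000268). The exporter Slc40a1 did not pass (241 ± 75.96 CPM in CDAHFD livers, against 171 ± 4.26 CPM in ND livers, adjusted p = 0.0954). Slc11a1, the iron transporter of macrophage phagosomes, rose to 75.8, 66.2 and 76.7 CPM in CDAHFD livers, against 15.8, 14.5 and 14.2 CPM in ND livers (log2 FC 2.297 ± 0.13, adjusted p = 4.03e-06). Red cell genes were lower throughout, with all 8 tested fallen and Hbb-bs at 20.7, 26.01 and 26.6 CPM in CDAHFD livers, against 314, 212 and 183 CPM in ND livers (log2 FC -3.27 ± 0.23, adjusted p = 1.11e-05). No measure of blood in the tissue was used here, and its part in the other values was not tested.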

How the data were processed

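Liver RNA of 3 CDAHFD and 3 ND mice of the C57BL/6J strain was sequenced, and no pooling of mice is named. According to the paper's methods and the submitters' processing notes, the authors trimmed reads with fastp 0.23.4, aligned them with HISAT2 2.2.1, used featureCounts 2.0.6 for gene counts and edgeR 4.0.16 for tests. The deposited values used here are raw gene counts. The methods name mm10 and the processing notes mm39 as the genome build, the methods describe rRNA depletion and the labels an mRNA isolation kit, and the annotation and the strand setting are not given in the sources used here. Reads that overlapping or near-identical genes share can therefore be split in unknown ways.

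Of 17713 lines, 3 that repeated a gene identifier were dropped. The table lists protein-coding genes. The 24 other per-sample columns, which hold FPKM and CPM, were not used. Genes with enough counts (filterByExpr, count minimum 10, total 15) were kept, 13402 of 17710. Libraries were scaled with TMM and compared with the quasi-likelihood F test in edgeR 4.0.16 (R 4.3.3, limma 3.58.1), with p values adjusted by Benjamini and Hochberg's method. The SE of a log2 fold change was its size divided by the square root of F. Fold changes of low genes depend on the prior count. The labels do not name the animal behind each library, so p values measure the spread between these libraries, which may be technical in part. No pair of libraries agreed within sampling noise.

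The members and gene lists were chosen with earlier results of these data known. The genes named are, for each list, its key members and the 6 with the smallest p, and, over all genes, the 10 largest rises and falls in fold and in CPM. Some genes of the second kind are not described, and a few others are not reported here. Alternatives were DESeq2 1.42.0, other scalings, filters and tests, a replicate block, all 12 libraries in one fit, and each library left out. The test was tried on simulated counts. Promoter windows came from RefSeq (GRCm38.p6), of the 250 bases before each start.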

Additional observations from a re-analysis of the deposited data

How the results depend on the processing

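Scaling by library size alone moved every count: 7568 genes rose and 717 fell, and by the thresholds of the study 4525 were upregulated and 336 downregulated, with 91.3% of the calls upward against 55.1% with TMM. Under the other alternatives (DESeq2-type size factors, no filter, a filter of 1 CPM in 3 libraries, the likelihood ratio test, the DESeq2 Wald test, all 12 libraries in one fit) each count stayed within 1.5 times its value. When each library was left out in turn, 2961 to 3429 genes rose, 2133 to 3089 fell, 2661 to 2951 were upregulated and 1017 to 1214 downregulated. An alternative chosen after seeing the data left out CDAHFD replicate 1 and ND replicate 2 together, and 3738 genes rose and 3362 fell. Calls of genes described with their values that were lost when 1 library was left out, each with its adjusted p from edgeR, were without CDAHFD replicate 1 those of Cyp7a1 (0.0971), Mat1a (0.0569), Prtn3 (0.0612) and Saa2 (0.0504), without CDAHFD replicate 2 those of Prtn3 (0.0749), Afp (0.0762), Atf4 (0.111) and Hamp (0.0538), without CDAHFD replicate 3 those of Cyp7a1 (0.0921), Mat1a (0.111), Prtn3 (0.0732), Saa2 (0.0511), Afp (0.0629), Atf4 (0.169) and Hamp (0.058), without ND replicate 1 those of Mat1a (0.116), Afp (0.0626) and Atf4 (0.164), without ND replicate 2 those of Cyp7a1 (0.121), Mat1a (0.1), Prtn3 (0.389) and Saa2 (0.0636) and without ND replicate 3 those of Mat1a (0.0781), Afp (0.0624), Atf4 (0.0976), Hamp (0.082) and Srebf1 (0.0739). Genes named in brackets that lost their call without at least 1 library, with the highest adjusted p over these fits, were Acsl4 (0.0787), Bbc3 (0.139), Ccl25 (0.167), Ccl27a (0.0678), Cfp (0.0623), Cxcl13 (0.0767), Cyp17a1 (0.125), Cyp4a14 (0.053), E2f8 (0.164), Ehd3 (0.134), Gbp2b (0.0935), Gclm (0.159), Lamp2 (0.06), Mtr (0.156), Nkd1 (0.133), Nr1h3 (0.0731), Plin3 (0.0693), Rspo3 (0.0809), Saa1 (0.231), Slc2a2 (0.081), Tff3 (0.129) and Tfrc (0.115).

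The log2 fold changes that changed sign were of genes that had not passed the test, apart from those of Atf4, Gclm, Il18 and Nr1h3. With library size scaling they became positive for Apob (0.14), Atf4 (0.22), B2m (0.51), Chdh (0.48), Clec4f (0.040), Cpt1a (0.44), Cyp3a11 (0.022), Gclm (0.23), Glul (0.35), H2-K1 (0.44), Hspa5 (0.15), Ifitm3 (0.62), Iigp1 (0.60), Il18 (0.074), Kdr (0.070), Lgr5 (0.29), Mup20 (0.17), Nr1h3 (0.12), Pcyt1a (0.40), Plin2 (0.33) and Sdha (0.083). With DESeq2-type size factors Cd79a stood at -0.0068 and in the DESeq2 Wald test at -0.0064. When 1 library was left out, or CDAHFD replicate 1 and ND replicate 2 together, the sign changed in at least 1 fit and the log2 fold change ran over these ranges: -0.074 to 0.39 for Cd4, -0.15 to 0.15 for Cd79a, -0.36 to 0.22 for Cpt1a, -0.22 to 0.15 for Gclc, -0.22 to 0.98 for Gdf15, -0.11 to 0.39 for Hsd17b13, -0.21 to 0.065 for Ifitm3, -0.30 to 0.15 for Iigp1, -0.017 to 0.49 for Lamp1, -0.56 to 0.31 for Plin2, -0.23 to 1.32 for S100a8, -0.20 to 1.56 for S100a9 and -0.63 to 1.01 for Socs2.

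The replicate numbers gave no clear sign of pairing. Correlations between the deviations of same-numbered libraries were 0.17, 0.15 and -0.028 for numbers 1, 2 and 3. CDAHFD replicates 1 and 2 correlated best with the ND library of their own number. CDAHFD replicate 3 correlated best with ND replicate 2 (0.20). With the replicate block 3565 genes rose, 2947 fell, 2789 were upregulated and 1053 downregulated. The block ended the calls of Ccl25, Gclm, Prtn3, Saa1, Saa2 and Tff3, and Cd79a stood at -0.0028 on the log2 scale. With 3 libraries in each group, genes with small changes or large spread within a group could be missed. In simulated data of this comparison 54 of 100 genes changed 2-fold and 85 of 100 changed 4-fold were recovered. There 13202 of the 13402 genes were left unchanged, whereas 47.2% of genes were called in the real comparison. The adjusted p depends on this share, so the recovered counts do not give the share missed here.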

Other observations

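A set of 10 genes that were picked for their low counts after the values were seen had almost no reads although liver cells are known to use them. Raw counts summed over the 3 CDAHFD libraries and over the 3 ND libraries were 71 and 37 for Pnpla2, 39 and 43 for Pklr, 11 and 6 for Elovl6, 8 and 0 for Csf1r, 29 and 17 for Stab2, 9 and 0 for Col4a1, 4 and 1 for Glb1 and 83 and 45 for Tagln. Per2 and Slc44a2 had 1 count each in CDAHFD livers and 0 in ND livers. Values of these genes were not read one by one as levels of expression, and any list that holds them was described without them where they were not tested. Pnpla2, Pklr and Tagln had enough counts to be tested. They therefore remain in the counts of calls, medians and mean levels of the lists that hold them.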
